A study of Mus musculus with 50 samples.

Results

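The genes described here are 32 genes of cholesterol and fatty acid synthesis, of 19224 genes in the deposited single-cell count matrix. They were chosen by function: 18 encode enzymes of the sterol pathway, 5 encode the SREBP regulators of both pathways, and 9 encode enzymes that make, elongate or desaturate fatty acids. The study transplanted single haematopoietic stem cells from mice carrying a β-actin-GFP transgene on the B6-Ly5.2 background, together with competitor whole bone marrow of B6-Ly5.2 mice, into lethally irradiated B6-Ly5.2 recipients. Cells were taken at 1 month (10 samples, 5 of marrow with spleen and 5 of marrow), 4 months (26 samples, 4 with spleen) and 12 months (14 samples, 6 with spleen) after transplantation. They were enriched on c-Kit beads, sorted by CD201, CD150, CD48, Sca-1, c-Kit and a lineage cocktail (B220, Gr-1 and TER-119) or by GFP, and sequenced at transcript 3′ ends by a modified Smart-seq2 protocol. The matrix ties no cell to a sample, month, organ or sort gate, and the ages of the mice are not given in the sources used here, so all cells form 1 pooled sample. Months are therefore not compared, no test across samples was possible, and every difference below is a description of these cells. CD201 is the product of Procr, so the sort itself set the share of Procr+ cells.

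Of 4271 cells used, in 67 libraries, 4185 had at least 1000 genes counted and at most 10% mitochondrial counts. The groups were 722 cycling Procr+ cells, 171 cycling cells without a Procr count, 257 non-cycling cells without a Procr count, cells that expressed at least 4 markers of 1 lineage, and 1912 non-cycling Procr+ cells. The last are set against the others as the stem-cell group. A cell counted as cycling with at least 5 of 20 mitosis genes or at least 8 of 20 replication genes at 20 CPM or more (CPM, the counts of a gene scaled to the same total in each cell or group). The median kept cell had 122013 counts and 4186 genes, and library totals ran from 1665151 to 26184494 counts. Cell-position names repeat between libraries, 92 of 95 of them in more than 1 library, but no 2 cells had identical counts. In 4 of 57 libraries the summed neutrophil and erythroid markers in the stem-cell group were over 5 times the median of 77.6 CPM, with a range of 4.24 to 815 CPM over all 57.

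The non-cycling Procr+ cells carried the stem-cell genes their gate names, with 331 CPM of Procr, 169 CPM of Mecom and 236 CPM of Hlf. Cycling Procr+ cells had 167, 130 and 164 CPM of the same genes. Most defining lineage markers separated their cells as labelled. Cd79a, a component of the B cell receptor, stood at 2889 CPM in the 52 B-marker cells, against 0.402 CPM in non-cycling Procr+ cells. Cd3d, a T cell receptor component, stood at 901 CPM in 36 T-marker cells, against 1.49 CPM. Jchain, the joining chain of secreted antibodies, stood at 30100 CPM in 76 plasma-marker cells, against 44.9 CPM. Among the B-cell markers Vpreb1 and Igll1, genes of the pre-B receptor, were near 0 in B-marker cells at 2.70 and 2.43 CPM. B-, plasma- and T-marker cells had 11.1, 22.5 and 46.0 CPM of Procr. The 449 neutrophil-, 215 megakaryocyte-, 89 macrophage- and 81 primary-granule-marker cells kept 124 to 148 CPM of Procr and 87.8 to 118 CPM of Mecom, and their labels name the marker gate only, not a mature cell.

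Cholesterol is built from acetyl-CoA through mevalonate, isoprenoid intermediates, squalene and lanosterol. Fatty acids come from the same acetyl-CoA by way of malonyl-CoA. Both pathways are transcribed under the SREBP factors, encoded by Srebf1 and Srebf2: Scap escorts the membrane-bound precursors out of the endoplasmic reticulum when sterol is low, and Insig1 and Insig2 hold the complex back when sterol is high. SREBP-2 acts mainly on sterol enzymes and SREBP-1 mainly on fatty acid enzymes. Blood cells also use the isoprenoid branch of the pathway to anchor small GTPases in membranes.

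In non-cycling Procr+ cells all 32 genes were counted, and 26 were at 10 CPM or more. Among the sterol enzymes, Ebp, the isomerase of the late sterol ring, was at 60.2 CPM (95% counting interval 59.3 to 61.1), with 16.6, 55.4 and 113 CPM as the lowest, median and highest of 55 libraries with at least 10 such cells. Msmo1, the C4 demethylating oxidase, was at 52.8 CPM, with 0, 37.3 and 161 CPM over the libraries. Hmgcs1, the synthase of the mevalonate pathway's entry, was at 22.7 CPM (0, 18.7 and 66.2), and Sqle, which oxidises squalene, was at 25.6 CPM (0.931, 21.6 and 88.3). Ebp and Sqle were counted in each of the 55 libraries, and Msmo1 and Hmgcs1 were not. Fdps, the farnesyl diphosphate synthase, was at 2.75 CPM, with 9 of 55 libraries at 0, and a counted predicted gene overlaps it on the same strand. Idi1, the isomerase just before it, was at 2.16 CPM, Tm7sf2, a sterol reductase, at 5.39 CPM, and Hsd17b7, a sterol ketoreductase, at 8.11 CPM. Counts at 3′ ends are not per length, so the order of levels between genes is not read. Counting intervals here cover counting error only, since amplified copies of 1 molecule are not independent.

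The regulators were all counted. Srebf2 was at 64.4 CPM, with 2.86, 55.9 and 131 CPM over the 55 libraries, and 61.1% of cells had a count. Srebf1 was at 24.8 CPM (4.61, 23.1 and 55.8), Insig1 at 24.5 CPM (1.80, 21.4 and 60.1), Insig2 at 31.2 CPM (7.08, 27.6 and 75.1) and Scap at 20.7 CPM (0.36, 17.0 and 65.1). No library lacked any of the 5. Of the fatty acid genes, Fasn, the fatty acid synthase itself, was at 19.5 CPM (1.36, 16.9 and 61.2), and Acly, which supplies cytosolic acetyl-CoA, was at 49.7 CPM (23.1, 46.6 and 95.1). Scd2 and Scd1 encode stearoyl-CoA desaturases, which put the first double bond into saturated fatty acids. Scd2 was at 71.5 CPM (10.9, 68.6 and 139), with a count in 59.6% of cells. Scd1 was at 2.68 CPM (0, 0.401 and 18.9), with a count in 4.65% of cells, 22 of 55 libraries at 0, and 20.5% of its counts in 1 cell. Fads1, the delta-5 desaturase, was at 54.0 CPM (3.64, 52.5 and 103). Fads2, the delta-6 desaturase, was at 6.02 CPM, with 15 libraries at 0 and 1 library at 133 CPM. Each cell showed few of the genes at once: thinned to 30000 counts, the median non-cycling Procr+ cell had a count for 6 of the 32.

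**Figure D1:**
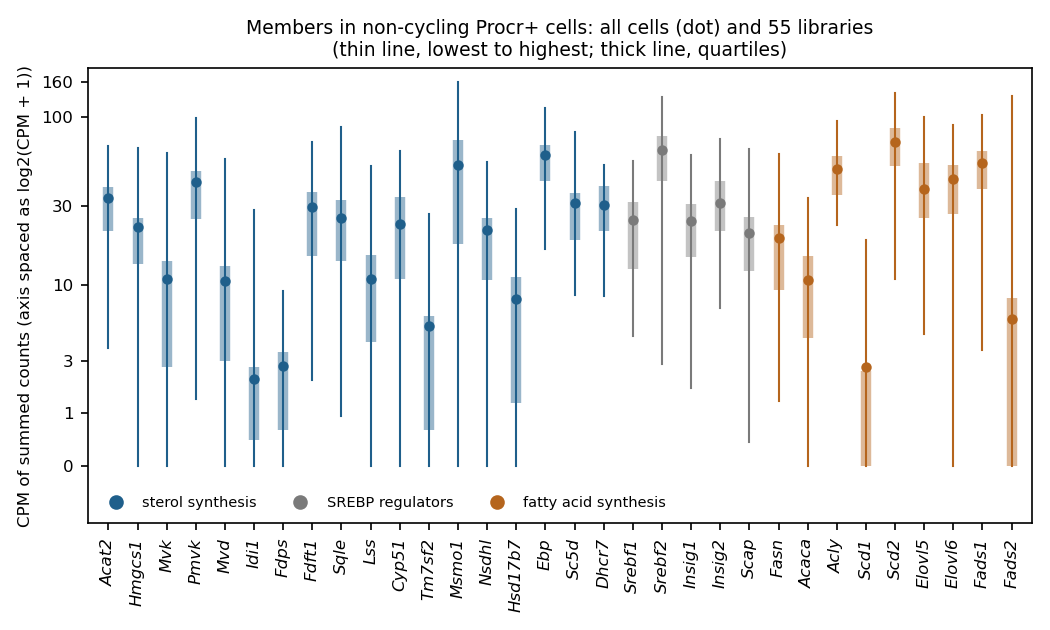
CPM of the 32 genes in non-cycling Procr+ cells, on an axis spaced as log2(CPM + 1), with a dot for all cells summed, a thin line for the lowest to highest of 55 libraries and a thick line for their quartiles. Scd2, Srebf2 and Ebp stand above 60 CPM, while Idi1, Scd1 and Fdps stand under 3 CPM with libraries at 0.

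Pairs of the genes were compared across 1609 non-cycling Procr+ cells thinned to 50000 counts each. The 91 pairs of sterol enzymes had a median Spearman correlation of 0.047, against 0.00626 over all pairs of 8303 genes, and 45 of the 91 (49.5%) lay above 0.0514, the 95th percentile of all pairs. The highest was Sqle with Msmo1 at 0.212, followed by Cyp51, the lanosterol demethylase, with Msmo1 at 0.184 and Sqle with Cyp51 at 0.166. Insig1 with Msmo1 stood at 0.156. The 15 pairs of fatty acid genes had a median of 0.020. These cells share libraries, and the counts are sparse, so correlations this small are given as a description only. With ranks centred within libraries the sterol median was 0.039.

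The promoters of 26 of the 32 genes, from 250 bases before to 50 bases after the start, were found in a RefSeq promoter table of build GRCm38.p6. The letters CCAAT, or ATTGG on the other strand, the box bound by NF-Y, stood in 21 of 26 (80.8%), against 41.1% of 27025 genes. TCACNCCAC or GTGGNGTGA, a form of the sterol regulatory element bound by SREBPs, stood in 1 of 26 (3.85%), against 1.44% of genes. The E-box CACGTG, the same on both strands, stood in 6 of 26 (23.1%), against 8.09%. A few of the promoters are printed 5′ to 3′ on the gene's strand, with matches to these motifs in capitals: Hmgcs1, the gene with the TCACNCCAC match, and Msmo1, Cyp51 and Insig1, whose counts stood in the highest pairs. Hmgcs1 lies at chr13:119690101-119690400 on the plus strand, Msmo1 at chr8:64733529-64733828 on the minus strand, Cyp51 at chr5:4104648-4104947 on the minus strand and Insig1 at chr5:28071162-28071461 on the plus strand. Hmgcs1 holds 1 sterol regulatory element match and 4 CCAAT matches, Msmo1 holds 3 CCAAT matches, Cyp51 holds 1, and Insig1 holds 1 CCAAT match and 1 E-box. A match is a description of the letters and not a bound site.
Hmgcs1: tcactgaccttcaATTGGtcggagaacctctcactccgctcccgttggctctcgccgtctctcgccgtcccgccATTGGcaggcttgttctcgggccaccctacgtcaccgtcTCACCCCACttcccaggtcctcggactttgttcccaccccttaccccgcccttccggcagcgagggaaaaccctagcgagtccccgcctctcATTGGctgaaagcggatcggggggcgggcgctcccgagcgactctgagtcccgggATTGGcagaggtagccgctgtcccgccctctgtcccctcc
Msmo1: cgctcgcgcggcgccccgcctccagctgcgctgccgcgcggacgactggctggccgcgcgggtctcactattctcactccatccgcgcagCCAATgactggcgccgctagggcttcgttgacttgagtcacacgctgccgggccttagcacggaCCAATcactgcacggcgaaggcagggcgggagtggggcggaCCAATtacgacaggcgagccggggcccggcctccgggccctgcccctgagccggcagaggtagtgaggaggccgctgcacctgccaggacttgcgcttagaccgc
Cyp51: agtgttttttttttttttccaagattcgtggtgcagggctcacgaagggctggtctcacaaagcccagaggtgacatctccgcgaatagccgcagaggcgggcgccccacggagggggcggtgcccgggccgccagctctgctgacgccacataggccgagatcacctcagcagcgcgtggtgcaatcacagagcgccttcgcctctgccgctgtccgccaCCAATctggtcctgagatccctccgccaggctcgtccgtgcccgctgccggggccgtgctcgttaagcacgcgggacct
Insig1: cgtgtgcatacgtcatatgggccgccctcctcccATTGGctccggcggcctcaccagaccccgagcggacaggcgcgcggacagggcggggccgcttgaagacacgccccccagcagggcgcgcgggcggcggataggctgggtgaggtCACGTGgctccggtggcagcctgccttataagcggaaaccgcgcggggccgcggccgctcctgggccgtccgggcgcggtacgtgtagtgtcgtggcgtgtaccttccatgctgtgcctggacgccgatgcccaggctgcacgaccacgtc

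Cycling Procr+ cells had nearly the same levels of the pathway as non-cycling Procr+ cells. Of the 32 genes, 24 passed the level needed for comparison, a mean of both groups of at least 10 CPM, and their median log2 ratio of cycling over non-cycling cells, with 1 CPM added to each level, was 0.03, against −0.06 over all 8336 genes compared. None of the 24 was higher past 1.5-fold (6.2% of all genes compared were), and 2 were lower past it (5.1% were): the regulators Srebf2 and Insig2. The sterol enzymes summed to 438 CPM in cycling cells and 424 CPM in non-cycling cells, the fatty acid genes to 303 and 296 CPM, and the regulators to 133 and 166 CPM. By library, the median of the 24 was above 0 in 23 of the 50 libraries that held 5 or more cells of each group and below 0 in 27. The 8 genes under 10 CPM were Mvd, Idi1, Fdps, Lss, Tm7sf2, Hsd17b7, Scd1 and Fads2.

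Srebf2 stood at 42.4 CPM in cycling Procr+ cells (2.73, 34.9 and 80.3 CPM as the lowest, median and highest of 34 libraries), against 64.4 CPM in non-cycling Procr+ cells (2.86, 55.9 and 131 CPM). Its log2 ratio was −0.59, and it was lower in 35 of 50 libraries. The ranges of the libraries overlap almost wholly, and after thinning to 30000 counts 43.0% of cycling cells and 45.6% of non-cycling cells had a count. Insig2 stood at 20.1 CPM in cycling cells (2.28, 21.5 and 47.9), against 31.2 CPM in non-cycling cells (7.08, 27.6 and 75.1), with a log2 ratio of −0.61 and lower values in 37 of 50 libraries. The thinned share of cells with Insig2 was 22.9% in cycling and 22.2% in non-cycling cells, which goes against the CPM, so no order is read from it. Over 18 other settings the Srebf2 ratio ran from −0.67 to −0.38, past 1.5-fold in 14, and the Insig2 ratio from −0.84 to −0.39, past it in 12. Settings that move only the level limit leave the ratio of a single gene as it is. Here and below they are in the number of settings but could not change a call.

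The other genes differed by less than 1.5-fold. Fasn came nearest on the high side, with 28.6 CPM in cycling cells (4.28, 23.5 and 72.1 over libraries), against 19.5 CPM in non-cycling cells (1.36, 16.9 and 61.2), a log2 ratio of 0.53, higher in 29 of 50 libraries. Acat2, the cytosolic acetoacetyl-CoA thiolase, had 44.6 CPM in cycling and 33.5 CPM in non-cycling cells (0.40, higher in 33 of 50). Ebp had 78.3 and 60.2 CPM (0.37). For these 3 genes the thinned share of cells with a count was also higher in cycling cells, at 22.6% against 15.1% for Fasn, 41.4% against 28.0% for Acat2 and 49.6% against 36.5% for Ebp. All genes were not counted at this depth, so these shares are not read as particular to the 3 genes. Insig1 had 19.7 CPM in cycling and 24.5 CPM in non-cycling cells (−0.31), Hmgcs1 19.3 and 22.7 CPM (−0.22), Sqle 26.9 and 25.6 CPM (0.07), Srebf1 28.5 and 24.8 CPM (0.20), and Scd2 68.8 and 71.5 CPM (−0.05). Below the level needed for comparison, Fdps had 3.39 CPM in cycling and 2.75 CPM in non-cycling cells and Scd1 1.35 and 2.68 CPM. Thinned to 30000 counts, the median cycling Procr+ cell had a count for 8 of the 32 genes and the median non-cycling Procr+ cell for 6. Over all genes, without thinning, the medians were 4756 and 4066 genes per cell, so the difference is not read as particular to the 32. In 5 lists of 43 neighbouring lipid genes, none of the genes compared passed 1.5-fold. Their medians were 0.09 for other sterol and isoprenoid enzymes, −0.21 for cholesterol uptake and efflux, −0.40 for other SREBP-processing genes, 0.05 for other fatty acid genes and −0.17 for fatty acid oxidation.

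**Figure D2:**
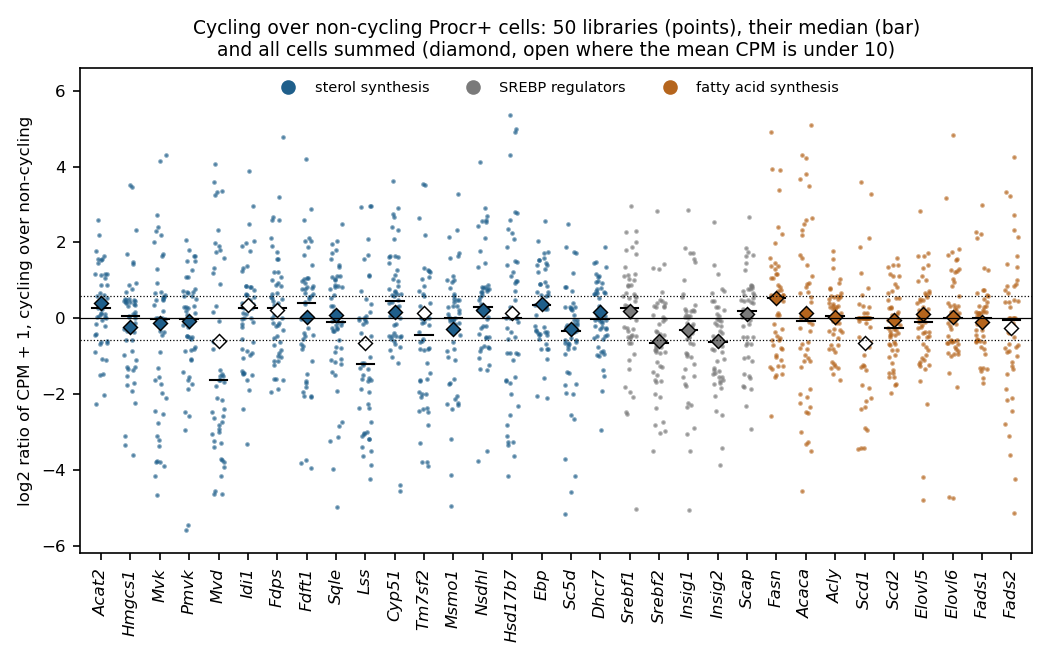
Log2 ratio of CPM + 1, cycling over non-cycling Procr+ cells, for each gene, with a point for each of 50 libraries, a bar for their median and a diamond for all cells summed, open where the mean level is under 10 CPM. Points lie on both sides of 0 for each gene, and among filled diamonds Srebf2 (−0.59) and Insig2 (−0.61) lie lowest.

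Cycling cells were also divided by their mitosis genes. The 364 cells with at least 5 mitosis genes (the G2/M gate) were set against the 529 cycling cells with fewer (the S gate), whatever their Procr count. Summed mitosis genes were at 4495 CPM in G2/M-gate cells and 185 CPM in S-gate cells. Summed replication genes were also higher in G2/M-gate cells, at 3434 against 2435 CPM, so the gate names do not separate the phases. The median log2 ratio of 24 genes compared was 0.06. Mvk, the mevalonate kinase, was the 1 gene higher past 1.5-fold (7.14% of all genes compared were), with 15.5 CPM in G2/M-gate cells (3.10, 11.6 and 23.1 over 7 libraries), against 7.02 CPM in S-gate cells (0, 3.30 and 38.6 over 24 libraries). Its log2 ratio was 1.04, and its thinned share was 16.2% (12.3 to 20.6) against 6.48% (4.47 to 9.02). The library ranges overlap, and Mvk was higher in 17 of 32 libraries and lower in 10. None was lower past 1.5-fold (4.27% were). Sqle, with 21.1 CPM in G2/M-gate cells and 31.9 CPM in S-gate cells (−0.58), lay just inside the limit, and Srebf2 had 31.7 and 44.9 CPM (−0.49). Hmgcs1 had 23.0 and 17.7 CPM, Fasn 35.7 and 28.9 CPM, Insig1 17.9 and 22.9 CPM, Srebf1 27.1 and 30.2 CPM, and Scd2 74.7 and 68.7 CPM. Procr itself was at 100 CPM in G2/M-gate cells, against 167 CPM in S-gate cells, and its part in these ratios was not tested. None of the neighbouring genes compared passed 1.5-fold.

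Within cycling cells, those without a Procr count were set against Procr+ cells. The median log2 ratio of 24 genes compared was −0.06, with 1 gene higher past 1.5-fold (5.32% of all genes compared were) and 2 lower (8.23% were). Fasn had 47.1 CPM in cycling Procr− cells and 28.6 CPM in cycling Procr+ cells (0.70). Within the 7 libraries that hold at least 5 cells of both, Fasn was higher in 3 and lower in 4, with a median of −0.42, so the direction does not hold within libraries. Srebf2 had 24.3 CPM in cycling Procr− cells and 42.4 CPM in cycling Procr+ cells (−0.78), and Msmo1 had 26.4 and 43.1 CPM (−0.69). Over 18 other settings Srebf2 ran from −1.27 to −0.27, past 1.5-fold in 14, and Msmo1 from −1.15 to −0.25, past it in 11. Of the neighbours, Stard4, a carrier of cholesterol between membranes, had 50.3 CPM in cycling Procr− cells and 93.7 CPM in cycling Procr+ cells (−0.88), and Dhdds, of the dolichol branch, had 15.3 and 24.5 CPM (−0.64), lower in 7 of 7 libraries. The median of all genes compared was also below 0 in 6 of these 7 libraries, at −0.11 in the median library. Mbtps2, the protease that frees SREBPs in the Golgi, had 9.86 and 17.8 CPM (−0.79). Of 7 uptake and efflux genes compared 1 was higher past 1.5-fold and 1 lower, and of 7 fatty acid oxidation genes 2 were lower, Slc25a20, the mitochondrial carnitine carrier (−0.78), and Cpt1a, which admits fatty acids to mitochondria (−0.66).

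Among non-cycling cells, 23 genes were compared between Procr− and Procr+ cells, with a median of 0.12 and none past 1.5-fold in either direction (5.27% of all genes compared were higher and 4.2% lower). The libraries went the other way: the median of the genes was below 0 in 17 of 22 libraries, and so was that of all genes compared in 22 of 22. Cells without a Procr count were shallower, with a median of 73662 counts against 129386, and the part of depth was not tested. Neighbours past the limit were Mbtps2, with 34.4 CPM in Procr− cells and 19.6 CPM in Procr+ cells (0.78), Hacd2, of fatty acid elongation, with 17.3 and 35.2 CPM (−0.99), and Soat1, which esterifies cholesterol, with 22.9 and 38.4 CPM (−0.73).

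The remaining comparisons set each lineage-marker group against the same non-cycling Procr+ cells, so they share that group's values and are not independent of each other. Lineage-marker cells include cycling cells, and the sort gates set how many of them there are. Of the neutrophil-marker cells 198 of 449 were cycling, of the megakaryocyte-marker cells 106 of 215, and of the primary-granule-marker cells 52 of 81. For macrophage-, T-, plasma- and B-marker cells the numbers were 24 of 89, 17 of 36, 16 of 76 and 6 of 52. Fasn was also higher in cycling than in non-cycling Procr+ cells, by less than 1.5-fold. The part of cycling in the ratios below was not tested. Large differences were common between these groups over all genes, and the share of all genes compared that passed 1.5-fold is given beside each count.

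**Figure D3:**
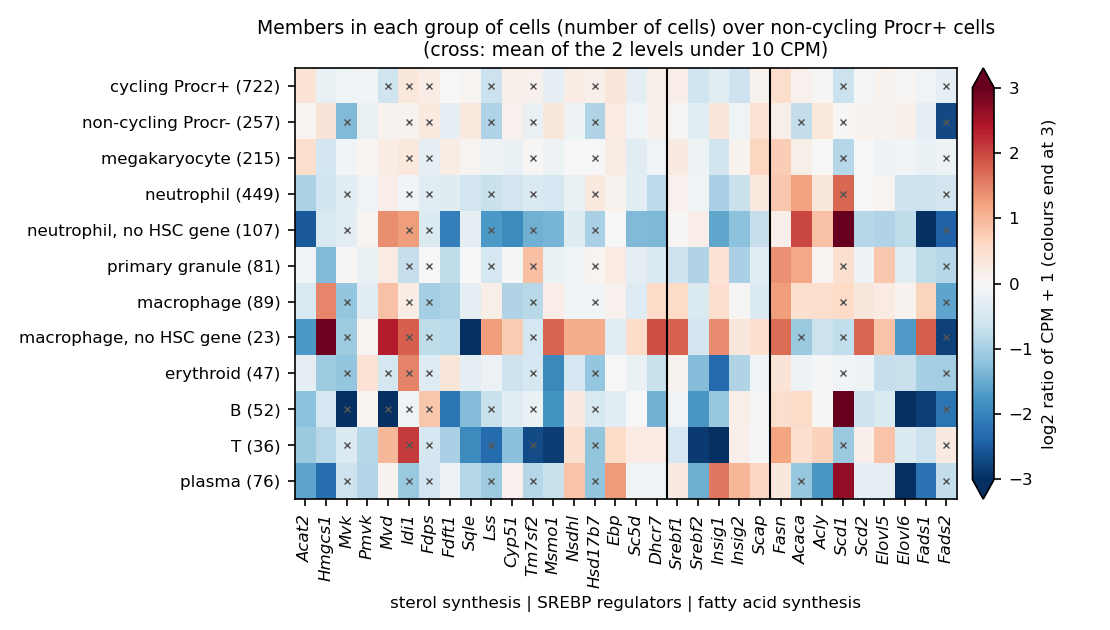
Log2 ratio of CPM + 1 for each of the 32 genes (columns, ordered as sterol enzymes, regulators and fatty acid genes) in each group of cells (lines, with the number of cells) over non-cycling Procr+ cells, as colour that ends at 3, with a cross where the mean of the 2 levels is under 10 CPM. Scd1 in B-marker cells (5.72) has the highest ratio and Insig1 in T-marker cells (−4.12) the lowest among genes compared.

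B-marker cells had much more Scd1 and less of 5 of the 11 sterol enzymes compared and of the desaturase and elongase genes Fads1 and Elovl6. Of 24 genes compared, 1 was higher past 1.5-fold (22.9% of all genes compared were) and 10 were lower (33.5% were), and their median log2 ratio was −0.38, against −0.17 over all genes compared. Scd1 stood at 193 CPM in B-marker cells (179 to 208, counting interval), against 2.68 CPM in non-cycling Procr+ cells (2.49 to 2.89), a log2 ratio of 5.72. Both libraries with at least 10 B-marker cells had 251 CPM, above the 18.9 CPM of the highest of 55 libraries of non-cycling Procr+ cells. After thinning, 19 of 36 B-marker cells had a Scd1 count (52.8%, exact interval 35.5 to 69.6), against 42 of 1747 non-cycling Procr+ cells (2.40%, 1.74 to 3.24) and 0 of 28 T-marker cells. A single B-marker cell held 20.3% of the Scd1 counts, and without it the level was 158 CPM. The ratio was past 1.5-fold in 18 of 18 other settings and ran from 4.69 to 6.13. Those that move only the level limit could not change it. No library held 5 cells of both groups, so no within-library ratio can be given.

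Elovl6, the elongase of C16 fatty acids, stood at 3.78 CPM in B-marker cells, against 43.9 CPM in non-cycling Procr+ cells (−3.23). Fads1 stood at 6.75 and 54.0 CPM (−2.83), with none in either library of at least 10 B-marker cells. Both genes kept their calls in 18 of 18 settings, including level limits that could not change them. Among sterol genes, Fdft1, the squalene synthase, had 5.7 CPM in B-marker cells and 29.6 CPM in non-cycling Procr+ cells (−2.20), Msmo1 14.6 and 52.8 CPM (−1.79), Dhcr7, the last reductase, 10.8 and 30.5 CPM (−1.42), and Acat2 13.8 and 33.5 CPM (−1.22). Sqle had 9.7 and 25.6 CPM (−1.31), from 2 B-marker cells with a count, 1 of which held 94% of the counts. Srebf2 had 18.4 CPM in B-marker cells and 64.4 CPM in non-cycling Procr+ cells (−1.76) and Insig1 10.5 and 24.5 CPM (−1.15), while Srebf1 had 22.9 and 24.8 CPM (−0.11). The sterol median was −0.53, and it was −0.58, with 7 genes below 0 and 6 above, among the 33 B-marker cells with no count of the stem-cell genes Procr, Mecom and Hlf. Scd2, with 46.1 and 71.5 CPM (−0.62), turned to 0.41 in those 33 cells. Fasn had 28.3 and 19.5 CPM (0.52), Hmgcs1 15.4 and 22.7 CPM (−0.53), and Fdps 5.7 and 2.75 CPM, too low to compare.

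Other lipid genes in B-marker cells differed in both directions. Of 7 fatty acid oxidation genes compared, 5 were lower past 1.5-fold and none higher, among them Cpt1a, which admits fatty acids to mitochondria, with 14.3 CPM in B-marker cells and 67.7 CPM in non-cycling Procr+ cells (−2.17). Stard4 had 11.1 and 85.3 CPM (−2.84) and Acss2, the cytosolic acetyl-CoA synthetase, 8.1 and 50.1 CPM (−2.49). Of 9 uptake and efflux genes, 3 were higher, among them Abca1, the cholesterol efflux pump (1.33), and 1 was lower. B-marker cells were shallower than non-cycling Procr+ cells, with a median of 44996 against 129386 counts, 18 of the 52 came from 1 library, and their summed neutrophil markers were 992 CPM against 97.4 CPM. The part of these in the ratios was not tested.

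T-marker cells had the lowest levels of Insig1, Srebf2 and Msmo1 of any lineage-marker group described here, together with more Fasn. Of 24 genes compared, 4 were higher past 1.5-fold (22.7% of all genes compared were) and 10 lower (29.1% were), with a median of −0.25, against −0.08 over all genes compared. The 12 sterol genes compared had a median of −0.84, with 7 lower and 1 higher, and the 7 fatty acid genes 0.51, with 3 higher and 1 lower. The sterol median turned to 0.55 among genes of at least 50 CPM and was 0.0025 with a looser lineage gate of 3 markers at 20 CPM. Insig1 stood at 0.467 CPM in T-marker cells, from 2 counts in 2 of 36 cells, against 24.5 CPM in non-cycling Procr+ cells. The ratio of these levels was 0.0190 (counting interval 0.00230 to 0.0688), or −4.12 on the log2 scale with 1 CPM added. Srebf2 stood at 7.94 and 64.4 CPM (−2.87), Msmo1 at 6.54 and 52.8 CPM (−2.84), and Sqle at 6.1 and 25.6 CPM (−1.91). Each of these 4 genes was thus far lower over all T-marker cells, though Sqle rose to −0.071 under 1 of 18 other settings. Cyp51 had 9.3 and 23.7 CPM (−1.25), which turned to 0.61 with the gate of 3 markers, Acat2 14.9 and 33.5 CPM (−1.11), and Hmgcs1 12.4 and 22.7 CPM (−0.83). Fdft1 (−0.96), Pmvk (−0.85) and Fads1 (−0.63) were lower too.

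Fasn had 45.8 CPM in T-marker cells and 19.5 CPM in non-cycling Procr+ cells (1.19), Elovl5, an elongase of polyunsaturated fatty acids, 70.5 and 38.2 CPM (0.87), and Acly 80.5 and 49.7 CPM (0.68). Mvd, the mevalonate diphosphate decarboxylase, had 21.9 and 10.6 CPM (0.99), which turned to −0.14 without the cell that held most of its counts. Scd2 had 79.4 and 71.5 CPM (0.15), Scd1 0.7 and 2.68 CPM, and Srebf1 a log2 ratio of −0.51. Fatty acid oxidation genes were lower past 1.5-fold in 4 of 7, with a median of −1.17, among them Slc25a20 with 13.8 CPM in T-marker cells and 58.1 CPM in non-cycling Procr+ cells (−2.00). No library held 10 T-marker cells, so no spread over libraries can be given. They were shallower than non-cycling Procr+ cells, with a median of 56732.5 against 129386 counts, and their summed neutrophil markers were 689 CPM against 97.4 CPM. The part of these in the ratios was not tested.

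Over all cells, plasma-marker cells had more Ebp, Nsdhl, Scap and Scd1, and less of 9 genes, among them Hmgcs1, Acly, Elovl6, Fads1 and Srebf2. Insig1 and Insig2 were also higher over all cells, but not in the median of the libraries. Of 24 genes compared, 6 were higher past 1.5-fold (20.1% of all genes compared were) and 9 lower (40.9% were). Both shares lay near those of all genes compared, so the counts are not read as particular to the 24 genes. The median of the 24 was −0.13, against −0.35 over all genes compared. Ebp stood at 148 CPM in plasma-marker cells (140 to 157), against 60.2 CPM in non-cycling Procr+ cells (1.29), was higher in 3 of 4 libraries that hold both, and had a thinned share of 58.6% against 36.5%. Nsdhl, a sterol dehydrogenase, had 40.3 and 21.6 CPM (0.87), and Scap 32.6 and 20.7 CPM (0.63). Insig1, with 75.3 and 24.5 CPM (1.58), and Insig2, with 63.6 and 31.2 CPM (1.00), were higher over all cells, but their within-library medians were −0.36 and −0.96 in the 4 libraries that hold both groups. Scd1 had 22.3 CPM in plasma-marker cells, from 18 of 76 cells, and 2.68 CPM in non-cycling Procr+ cells (2.66).

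Elovl6 was at 2.20 CPM in plasma-marker cells, against 43.9 CPM in non-cycling Procr+ cells (−3.81), and Fads1 at 10.8 against 54.0 CPM (−2.22). Acly was at 14.2 against 49.7 CPM (−1.74). Hmgcs1, at the entry of the mevalonate pathway, was at 3.94 against 22.7 CPM (−2.26), Acat2 at 10.6 against 33.5 CPM (−1.58), and Sqle at 13.6 against 25.6 CPM (−0.87). Pmvk, the phosphomevalonate kinase (−0.87), and Msmo1 (−0.68) were lower by less. Srebf2 was at 22.5 against 64.4 CPM (−1.48), while Srebf1 had 30.3 and 24.8 CPM (0.28), Fasn 24.7 and 19.5 CPM (0.33) and Scd2 59.4 and 71.5 CPM (−0.26). Stard4 (−3.10), Acss2 (−2.27) and 5 of 7 fatty acid oxidation genes were also lower, and Dhdds, with 62.9 and 22.1 CPM (1.47), was higher. The median over the 24 genes was below 0 in each of the 4 libraries that hold both groups, at −0.90 in the median library. That of all genes compared was also below 0 in each, at −0.55 in the median library. With the median of the libraries taken gene by gene first, the median over the 24 genes was −1.31. The antibody chain Jchain alone took 30100 CPM of these cells, and summed neutrophil markers were 2244 CPM against 97.4 CPM. The part of these in the ratios was not tested.

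Erythroid-marker cells, of which 42 of 47 were cycling, had less of 3 of the 5 regulators and of 7 enzymes. Of 24 genes compared, none was higher past 1.5-fold (19.6% of all genes compared were) and 10 were lower (32.3% were), with a median of −0.28, against −0.16 over all genes compared. Insig1 was at 4.08 CPM in erythroid-marker cells, against 24.5 CPM in non-cycling Procr+ cells (−2.33). Cycling Procr+ cells had 19.7 CPM of Insig1. Erythroid-marker cells were not compared with cycling cells, and the part of cycling in the ratios was not tested. Msmo1 was at 13.1 against 52.8 CPM (−1.93), Srebf2 at 25.7 against 64.4 CPM (−1.29), Hmgcs1 at 10.3 against 22.7 CPM (−1.07), Fads1 at 26.8 against 54.0 CPM (−0.98) and Insig2 at 16.2 against 31.2 CPM (−0.90). Elovl5 (−0.70), Dhcr7 (−0.67), Elovl6 (−0.66) and Cyp51 (−0.63) were lower by less. Srebf1 had 26.6 and 24.8 CPM, Sqle 20.8 and 25.6 CPM, Fasn 25.7 and 19.5 CPM and Scd2 64.2 and 71.5 CPM, none past 1.5-fold. Of the neighbours, Pdss1, of the ubiquinone side chain, had 16.8 CPM in erythroid-marker cells and 4.33 CPM in non-cycling Procr+ cells (1.74), and Abcg1, a sterol efflux transporter, 29.8 and 101 CPM (−1.74). The 1 library that held 5 or more cells of each gave a median of −0.51 over the 24 genes, and Fads1 there was at 0.30. Summed neutrophil markers were 1672 CPM in erythroid-marker cells and summed plasma markers 620 CPM, against 97.4 and 53.4 CPM in non-cycling Procr+ cells, and their part in the ratios was not tested.

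Neutrophil-marker cells had more of Acaca and Fasn, the 2 enzymes that build palmitate from acetyl-CoA, and less of several sterol genes. They had 26.0 CPM of Acaca, the carboxylase that makes malonyl-CoA (0, 22.5 and 63.2 over 12 libraries), against 10.7 CPM in non-cycling Procr+ cells (0, 10.4 and 33.5 over 55 libraries), a log2 ratio of 1.21. Fasn was at 35.0 CPM (1.60, 24.9 and 117), against 19.5 CPM (0.81). The library ranges of both genes overlap between the groups. Of 24 genes compared, 2 were higher past 1.5-fold (18.4% of all genes compared were) and 7 lower (14.8% were), with a median of −0.27, against −0.10 over all genes compared. The lower ones were Insig1, with 12.0 CPM in neutrophil-marker cells and 24.5 CPM in non-cycling Procr+ cells (−0.97), Acat2, with 16.9 and 33.5 CPM (−0.94), Dhcr7 (−0.78), Insig2 (−0.66), Fads1 (−0.64), Hmgcs1, with 14.6 and 22.7 CPM (−0.61), and Elovl6 (−0.61). Within libraries Insig2 was at 0.21, and Hmgcs1 stayed past 1.5-fold in 9 of 19 settings, including level limits that could not change it. Srebf2 had 58.5 and 64.4 CPM (−0.14), Srebf1 differed by 0.13, Sqle by −0.55 and Scd2 by 0.00. Among the 107 of 449 neutrophil-marker cells with no count of the stem-cell genes, 25 genes were compared. Of these, 4 were higher past 1.5-fold (28.6% of all genes compared were) and 13 lower (37.1% were). There Fasn was at 21.6 CPM (0.14), so its call did not hold, Fads1 was at 5.7 CPM (−3.04), Acat2 at 5.0 CPM (−2.53) and Acaca at 45.9 CPM (2.01). These 107 cells were shallower, with a median of 39476 counts against 88992 in all neutrophil-marker cells, and the part of depth was not tested.

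In the 81 primary-granule-marker cells, 3 of 25 genes compared were higher past 1.5-fold (14.6% of all genes compared were) and 6 lower (16.2% were), with a median of −0.14. Fasn was at 51.5 CPM in primary-granule-marker cells, against 19.5 CPM in non-cycling Procr+ cells (1.36), Acaca at 25.2 against 10.7 CPM (1.17), with 54% of its counts in 1 cell, and Elovl5 at 67.8 against 38.2 CPM (0.81). Hmgcs1 was at 8.55 against 22.7 CPM (−1.31), lower in 3 of 3 libraries that hold both groups. Srebf2 was at 34.1 against 64.4 CPM (−0.90), Srebf1 at 15.7 against 24.8 CPM (−0.62) and Insig2 at −0.97 on the log2 scale. Each of these 3 regulators turned direction under another setting: Srebf2 was at 0.074 with the gate of 3 markers, Srebf1 at 0.16 with equal weight per cell and at 0.50 in the 14 cells with no count of the stem-cell genes, and Insig2 at 0.62 within libraries. Fdft1 and Fads1 both differed by −0.77, and Fdft1 was at 0.66 within libraries. Sqle, at 25.7 and 25.6 CPM, Insig1, at 33.1 and 24.5 CPM, and Scd2, at 64.7 and 71.5 CPM, stayed under the limit. Of the neighbours, Acss2 was at 17.4 against 50.1 CPM (−1.48) and Hacd2 at 68.2 against 35.2 CPM (0.93). Prtn3, 1 of the markers of this gate, was at 1039 CPM against 820 CPM, and so did not set these cells apart. Summed neutrophil markers were 10440 CPM in them, against 97.4 CPM, and summed primary granule markers 4399 CPM, against 868 CPM, and the part of the neutrophil markers in the ratios was not tested.

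Macrophage-marker cells had more Hmgcs1 and Fasn, and over all cells more of 7 of 10 uptake and efflux genes compared. Of 25 genes compared, 5 were higher past 1.5-fold (24.3% of all genes compared were) and 2 lower (13.7% were), with a median of 0.17, against −0.00 over all genes compared. Hmgcs1 was at 64.9 CPM in macrophage-marker cells, with 37.5 and 144 CPM in the 2 libraries of at least 10 cells, against 22.7 CPM in non-cycling Procr+ cells (1.47). The thinned share was 33.3% against 19.6%. Fasn was at 48.2 against 19.5 CPM (1.26), Mvd at 20.3 against 10.6 CPM (0.88), Fads1 at 86.5 against 54.0 CPM (0.67) and Srebf1 at 37.7 against 24.8 CPM (0.59). Fdft1, at 15.1 against 29.6 CPM (−0.93), and Cyp51, at 12.2 against 23.7 CPM (−0.90), were lower, but Cyp51 was at 0.77 in the 23 cells with no count of the stem-cell genes. Srebf2 had 47.7 and 64.4 CPM (−0.43), Insig1 35.0 and 24.5 CPM (0.50), Sqle 20.9 and 25.6 CPM (−0.28) and Scd2 90.5 and 71.5 CPM (0.34). A single library, with 19 of the 89 cells, held 66.1% of the Hmgcs1 counts. Without it Hmgcs1 was at 0.45, Fads1 at 0.14, Mvd at −0.60 and Srebf1 at −0.60, so that none of these 4 stayed higher past 1.5-fold, while Fasn was at 0.63. In the 23 macrophage-marker cells with no count of the stem-cell genes, 15 of them from 1 library, 25 of the 32 genes were compared. Of these 25, 14 were higher past 1.5-fold than in non-cycling Procr+ cells (35.1% of all genes compared were) and 5 lower (40.8% were). Hmgcs1 was at 180 CPM there, Dhcr7 at 118 CPM and Scd2 at 238 CPM, while Sqle was at 1.9 CPM. Of 10 uptake and efflux genes compared over all macrophage-marker cells, 7 were higher and 1 lower, with a median of 1.25. Within the 4 libraries that hold both groups that median was above 0 in 1 and below 0 in 3, at −0.19, so the direction over the list does not hold within libraries. Of these genes, Nr1h3, the sterol-sensing liver X receptor, had 185 CPM in macrophage-marker cells and 3.11 CPM in non-cycling Procr+ cells (5.50), Abca1 55.9 and 7.67 CPM (2.71), and Npc1, which exports cholesterol from lysosomes, 77.8 and 11.8 CPM (2.63).

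Megakaryocyte-marker cells differed from non-cycling Procr+ cells in few of the genes. Of 26 genes compared, 2 were higher past 1.5-fold (7.21% of all genes compared were) and 1 lower (7.33% were), and the median was 0.00. Fasn was at 33.4 CPM in megakaryocyte-marker cells and 19.5 CPM in non-cycling Procr+ cells (0.75), Scap at 32.7 and 20.7 CPM (0.63), and Insig1 at 16.0 and 24.5 CPM (−0.59). Hmgcs1, at 15.0 and 22.7 CPM (−0.57), lay just inside the limit, and Srebf1, Srebf2, Sqle and Scd2 differed by −0.16 to 0.27. Scap was at −0.045 in the median of 17 libraries that hold both groups, so its direction does not hold within libraries. The median of all genes compared was below 0 in 15 of these 17 libraries, at −0.20 in the median library. The part of this in the Scap value was not tested. In the 9 cells with no count of the stem-cell genes the median was −1.31 and Fasn was at −1.06. Pf4, a defining platelet-granule marker, was at 1072 CPM in megakaryocyte-marker cells, against 190 CPM in non-cycling Procr+ cells.

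Counted per cell at 30000 counts, the median cell had a count for 3 of the 32 genes among B-marker cells and 4.5 among T-marker cells. It had 5 among plasma-marker, 6 among neutrophil-marker and 7 among macrophage-, megakaryocyte- and primary-granule-marker cells. Erythroid-marker cells had 8 and non-cycling Procr+ cells 6. Over all genes, without thinning, the median counted per cell was 2252 in B-, 2922.5 in T- and 3360.5 in plasma-marker cells. It was 4118 in neutrophil-marker, 5662 in erythroid-marker and 4066 in non-cycling Procr+ cells, and 4360 to 4620 in the other groups named. All genes were not counted at 30000 counts, so no result about the 32 genes is read from this order. Of the 80 calls past 1.5-fold that were followed through the other settings, up to 12 of the largest and the genes always named in each of 11 comparisons, 26 were kept under every setting tried, among them Scd1, Elovl6, Fads1 and Srebf2 in B-marker cells, Insig1, Msmo1 and Srebf2 in T-marker cells, Insig1 and Insig2 in erythroid-marker cells, Acaca and Acat2 in neutrophil-marker cells, and Elovl6, Hmgcs1, Scd1 and Srebf2 in plasma-marker cells. No within-library ratio could be given for B- and T-marker cells, so their calls did not face that setting. For all 80 calls, the settings that move only the level limit could not change the outcome.

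**Figure D4:**
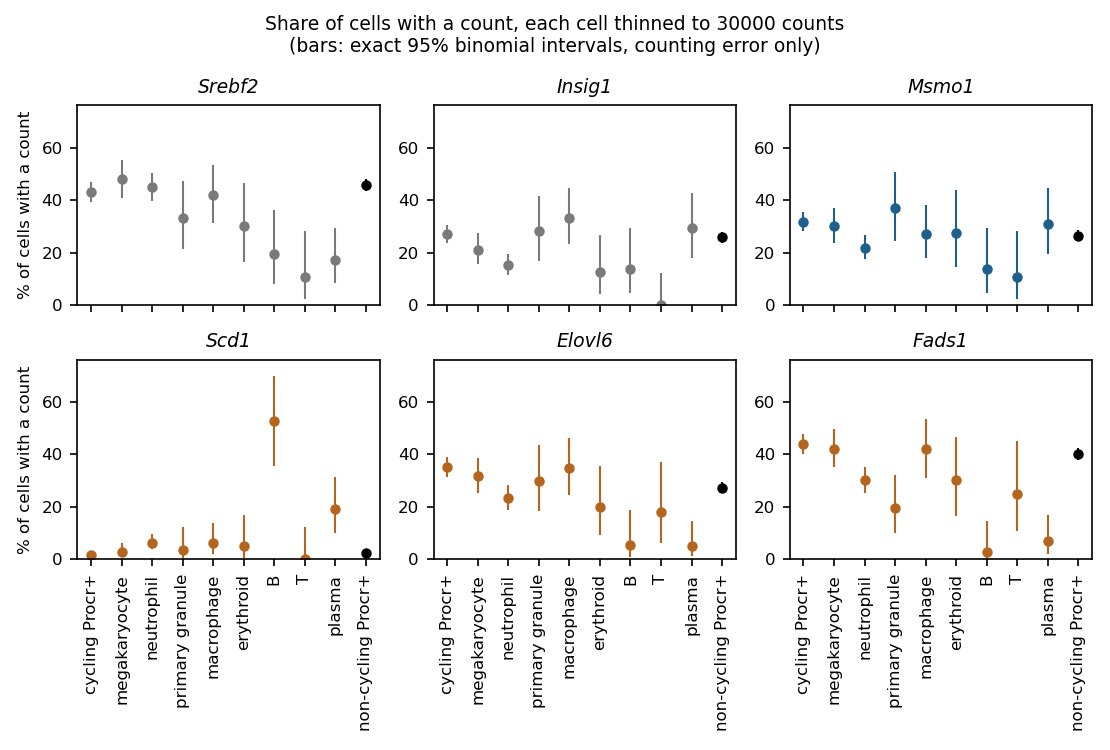
Percent of cells with a count of the named genes in each group, each cell thinned to 30000 counts, with bars for exact 95% binomial intervals of counting error, which cover no spread between libraries or animals. Scd1 stands at 52.8% in B-marker cells and 2.40% in non-cycling Procr+ cells.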

How the data were processed

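Whole-number counts per gene and cell were deposited by the authors as 1 matrix. The submitters' processing notes name build GRCm38, HTSeq 0.9.1, HISAT2 2.1.0 and Trimmomatic 0.36. Whether the deposited counts are reads or molecules, and the strand setting of the counting, are not given in the sources used here. Without strand, reads of Fdft1, Cyp51 and Srebf1 cannot be told apart from those of the counted genes on the opposite strand that overlap them.

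Of the cells, 4271 were used. The 17 columns of 1 further library were not used. Counts were summed per group of cells, scaled to CPM, and compared as log2 ratios with 1 CPM added. Genes were compared where the mean of both levels was at least 10 CPM, and a gene was called past 1.5-fold. With 1 pooled sample no p-value can be given, so values over libraries are descriptions, and libraries are not replicates. Lineage-marker cells had at least 4 markers of 1 of 11 lists at 50 CPM or more. Cells whose largest share of markers was tied between lists, and groups under 20 cells, were left out of the main comparisons. A cell that met several lists with unequal shares stayed in the group of the largest share. The alternative that keeps cells with no count of the stem-cell genes holds as few as 14 primary-granule- and 9 megakaryocyte-marker cells. Those cells had medians of 13993.5 and 24395 counts, against 74621 and 158711 in all cells of the same gates. Doublets were not called.

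The 32 genes and the lists were chosen with earlier results of these data known. The text names, in each comparison, genes past 1.5-fold, largest first, up to 12, with Srebf1, Srebf2, Insig1, Hmgcs1, Sqle, Fdps, Fasn, Scd1 and Scd2 named where their levels could be compared, and up to 6 neighbouring genes. A neighbouring gene is not reported here. Alternatives covered the scaling, thinning, equal weight per cell, level and gate limits, within-library ratios, leaving out the main library, the cell with the most counts or the 4 libraries with high marker sums, and cells with no count of the stem-cell genes. Poisson and Clopper-Pearson intervals are at 95%. The ratios were tested on simulated data. Python 3.11.15, numpy 2.4.6, scipy 1.17.1, pandas 2.3.3 and matplotlib 3.10.9 were used.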

Additional observations from a re-analysis of the deposited data

How the results depend on the processing

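All cells form 1 pooled sample, so the spread between animals is unknown, and lineage-marker groups of 36 to 89 cells rest on few libraries. No paired analysis was possible because no cell is tied to a sample, and leaving out each replicate was not run for the same reason. Genes under 10 CPM are limited by depth. In cycling against non-cycling Procr+ cells the median of the genes ran from −0.05 to 0.12 over the settings tried, that of the sterol enzymes from −0.03 to 0.37 and that of the fatty acid genes from −0.05 to 0.11. A first tally took the medians over all the genes compared, the sterol and fatty acid medians outside the lineage-marker comparisons, and the sterol pairs. Of these, 337 values under other settings differed from the reported one by less than the SD between libraries, or by less than the counting error where under 3 libraries held both groups, and 11 by more. That SD can hold a change of sign: the median in non-cycling Procr− over Procr+ cells, 0.12, ran down to −0.48. For single genes and the sterol and fatty acid medians of lineage-marker cells, 2893 values differed by less, 242 by more, and 24 turned direction from a value past 1.5-fold. The 2893 include single-gene values under another level limit, which equal the reported ones by construction. Leaving out cells with a count of the stem-cell genes, leaving out the cell with the most counts, and centring ranks within libraries were chosen after seeing the data. The cause of each change below was not tested. As medians of within-library ratios, Fasn was at −0.42 (cycling Procr− over Procr+), Insig2 at 0.21 in neutrophil-marker cells, Fdft1 at 0.66 and Insig2 at 0.62 in primary-granule-marker cells, Fads1 at 0.30 and the median of the genes at −0.51 in erythroid-marker cells, Insig1 at −0.36, Insig2 at −0.96 and the median at −1.31 in plasma-marker cells, Mvd at −0.38 and Srebf1 at −1.65 in macrophage-marker cells, and Scap at −0.045 in megakaryocyte-marker cells. With equal weight per cell, Srebf1 was at 0.16 in primary-granule-marker cells and the median at −0.73 in T-marker cells, where it was −0.71 with thinned counts. Among genes of at least 50 CPM, the median was −0.077 in erythroid-marker cells and 0.62 in T-marker cells, and the sterol median there was 0.55. With 3 markers of 20 CPM as the lineage gate, Srebf2 was at 0.074 in primary-granule-marker cells, Dhcr7 at 0.067 in erythroid-marker cells, and Cyp51 at 0.61 and the sterol median at 0.0025 in T-marker cells. With 5 markers of 100 CPM, the median was −0.61 in erythroid-marker cells and Scap was at −0.55 in megakaryocyte-marker cells. Without the 4 libraries of high marker sums the erythroid median was −0.49. Among cells with no count of the stem-cell genes, the median was −1.26 and Srebf1 0.50 in 14 primary-granule-marker cells, Scd2 0.41 in B-marker cells, the median 0.85 and Cyp51 0.77 in macrophage-marker cells, and the median −1.31 and Fasn −1.06 in 9 megakaryocyte-marker cells. Without the main library, Mvd and Srebf1 were at −0.60 each in macrophage-marker cells. Without the cell with the most counts, Mvd was at −0.14 in T-marker cells.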

Other observations

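Groups too small to compare held some high values. The 9 dendritic-marker cells had 277 CPM of Hmgcs1, 69% of it in 1 cell, and 196 CPM of Sqle, from 1 cell, against 22.7 CPM and 25.6 CPM in non-cycling Procr+ cells. The 2 cells with stromal or endothelial markers had 4694 CPM of Scd1 and 1507 CPM of Fasn.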
